A study of Mus musculus with 6 samples.

Results

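The BCL2 family decides whether a cell keeps its mitochondria intact or dies. Survival members (Bcl2, Bcl2l1 and Mcl1) hold the effectors Bax and Bak1 in check, and BH3-only members (Bcl2l11, Bbc3, Pmaip1, Bid and Bad) relieve that check or act on the effectors. Activated Bax and Bak1 permeabilise the outer mitochondrial membrane. In the thymus, loss of survival members removes developing T cells, Bcl2l11 (Bim) is needed to delete self-reactive thymocytes, and Bbc3 (Puma), Pmaip1 (Noxa) and Bax are known targets of p53.

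These 10 genes were examined in 6 open-chromatin profiles of mouse thymus taken at 4 weeks of age. The method was ATAC-seq, which reads out the DNA that a transposase can reach and cut. Of the 6 libraries, 3 came from p53 AD/- mice, the group that the series calls dimeric, and 3 from p53 -/- mice, here called null. All were on a mixed background of BALB/C and C57BL6. Neither genotype label includes a wild-type p53 allele, and no wild-type thymus was analysed here. The labels do not say that each library came from its own mouse, so the spread between libraries may be partly technical.

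Each library is represented by a list of peak summits, the single bases at which accessibility peaked, each with a score. Scores are the authors' own and were taken to be −log10 q-values. A summit counted for a gene when it lay between 50 kb before and 50 kb after the gene body (build GRCm38). Summits were widened by 250 bp on each side and overlapping ones from all libraries were joined, which gave 174 regions for the 10 genes, out of 73702 regions on chromosomes 1 to 19 and X. A score percentile gives the rank of a summit in the list of its own library, on a scale that ends at 100 for the highest score. Lists differ in length, so percentiles describe a library and do not show a change between libraries.

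The lists held 44496 to 60160 summits, and AD/- library 3 was the shortest. Read depth is unknown. All 10 thymocyte markers, Cd3e, Cd4, Cd8a, Rag1 and Ptcra among them, had a summit within 1 kb of the gene start in every library. Such summits were also present, in every library, for 1 of 5 B cell markers (Ebf1), 1 of 5 myeloid markers (Spi1), the erythroid marker Epor, 1 of 5 thymic epithelial markers (Epcam) and 3 of 5 endothelial or mesenchymal markers (Kdr, Col1a1 and Pdgfrb). The defining Cd79a, Lyz2, Csf1r, Klf1, Foxn1, Psmb11 and Pecam1 had none in any library. The myeloid gene Itgam had one in every library but AD/- library 3. Fewer cells of a type and less accessible DNA per cell cannot be told apart in such bulk tissue.

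Promoter sequences are shown for 6 members, because the summits beside their starts carry most of what follows. Each runs 5′ to 3′ on the strand of the gene from 250 bases before the annotated start to 50 bases from it (RefSeq, GRCm38.p6). Capitals mark the stretch from 10 bases before the first to 10 bases after the last summit found there.
Bax, chr7:45466849-45467148, minus strand: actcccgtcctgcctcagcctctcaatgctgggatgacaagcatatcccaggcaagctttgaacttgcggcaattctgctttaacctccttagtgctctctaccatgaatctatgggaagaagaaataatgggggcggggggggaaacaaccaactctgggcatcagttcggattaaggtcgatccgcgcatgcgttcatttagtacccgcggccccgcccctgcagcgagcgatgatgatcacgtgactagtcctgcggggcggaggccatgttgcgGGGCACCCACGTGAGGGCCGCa
Bcl2l11 first start, chr2:128125788-128126087, plus strand: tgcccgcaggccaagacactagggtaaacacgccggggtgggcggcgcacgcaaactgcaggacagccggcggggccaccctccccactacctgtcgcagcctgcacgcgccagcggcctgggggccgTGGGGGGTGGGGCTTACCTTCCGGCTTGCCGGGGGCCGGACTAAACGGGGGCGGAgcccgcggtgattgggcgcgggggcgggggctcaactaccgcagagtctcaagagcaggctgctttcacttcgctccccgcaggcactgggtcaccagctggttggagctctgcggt
Bcl2l11 second start, chr2:128127325-128127624, plus strand: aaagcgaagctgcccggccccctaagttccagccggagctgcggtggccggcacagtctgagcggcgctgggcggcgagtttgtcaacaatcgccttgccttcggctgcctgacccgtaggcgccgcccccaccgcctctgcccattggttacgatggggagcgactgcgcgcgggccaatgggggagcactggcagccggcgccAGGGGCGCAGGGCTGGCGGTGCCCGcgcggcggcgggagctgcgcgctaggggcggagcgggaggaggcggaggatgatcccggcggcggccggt
Bbc3 middle start, chr7:16310011-16310310, plus strand: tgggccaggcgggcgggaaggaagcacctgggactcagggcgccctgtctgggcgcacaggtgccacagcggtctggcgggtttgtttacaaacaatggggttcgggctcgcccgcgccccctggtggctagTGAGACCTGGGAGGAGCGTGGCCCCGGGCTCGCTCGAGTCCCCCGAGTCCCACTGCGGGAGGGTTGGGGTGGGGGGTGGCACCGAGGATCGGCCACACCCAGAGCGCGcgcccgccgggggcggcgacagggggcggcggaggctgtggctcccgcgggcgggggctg
Mcl1, chr3:95658471-95658770, plus strand: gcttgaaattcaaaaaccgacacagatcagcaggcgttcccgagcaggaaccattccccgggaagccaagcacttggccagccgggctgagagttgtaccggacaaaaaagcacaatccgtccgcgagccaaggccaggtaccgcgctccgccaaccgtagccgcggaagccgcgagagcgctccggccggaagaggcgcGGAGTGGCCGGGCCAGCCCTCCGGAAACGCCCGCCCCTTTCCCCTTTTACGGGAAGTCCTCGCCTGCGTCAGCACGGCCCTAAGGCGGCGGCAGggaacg
Bid, chr6:120916775-120917074, minus strand: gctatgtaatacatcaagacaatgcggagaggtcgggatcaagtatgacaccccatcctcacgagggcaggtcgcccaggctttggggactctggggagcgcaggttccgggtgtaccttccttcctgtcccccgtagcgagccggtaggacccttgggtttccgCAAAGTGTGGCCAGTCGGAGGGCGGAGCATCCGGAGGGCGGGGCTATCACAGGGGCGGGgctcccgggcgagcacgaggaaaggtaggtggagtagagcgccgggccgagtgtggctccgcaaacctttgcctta
Bak1, chr17:27028578-27028877, minus strand: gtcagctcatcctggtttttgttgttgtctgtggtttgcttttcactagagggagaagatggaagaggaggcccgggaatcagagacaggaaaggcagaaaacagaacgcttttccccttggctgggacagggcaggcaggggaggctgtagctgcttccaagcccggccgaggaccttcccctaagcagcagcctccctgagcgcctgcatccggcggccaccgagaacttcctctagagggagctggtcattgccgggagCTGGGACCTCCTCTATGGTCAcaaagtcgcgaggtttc

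All 10 genes had accessible DNA at or close to their start. In 9 of the 10, a summit lay within 1 kb of an annotated start in all 6 libraries, compared with 54.3% of the 21631 protein-coding genes. The exception was Bak1. In 5 of its libraries the nearest summit lay 1007 or 1008 bp inside the gene, just past that limit, so with a limit of 2 kb all 10 genes had one. The scores of these summits were high, at percentiles from 73.5 to 98.8 over all members and libraries. Shared start regions score about as high across the genome. Among regions found in all 6 libraries, the median percentile was 89.9 for the 10 at a member's start and 88.4 for those at any gene start. Pmaip1 has no annotated start in the tables used, and the summit beside its lower gene end was taken in its place.

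**Figure D1:**
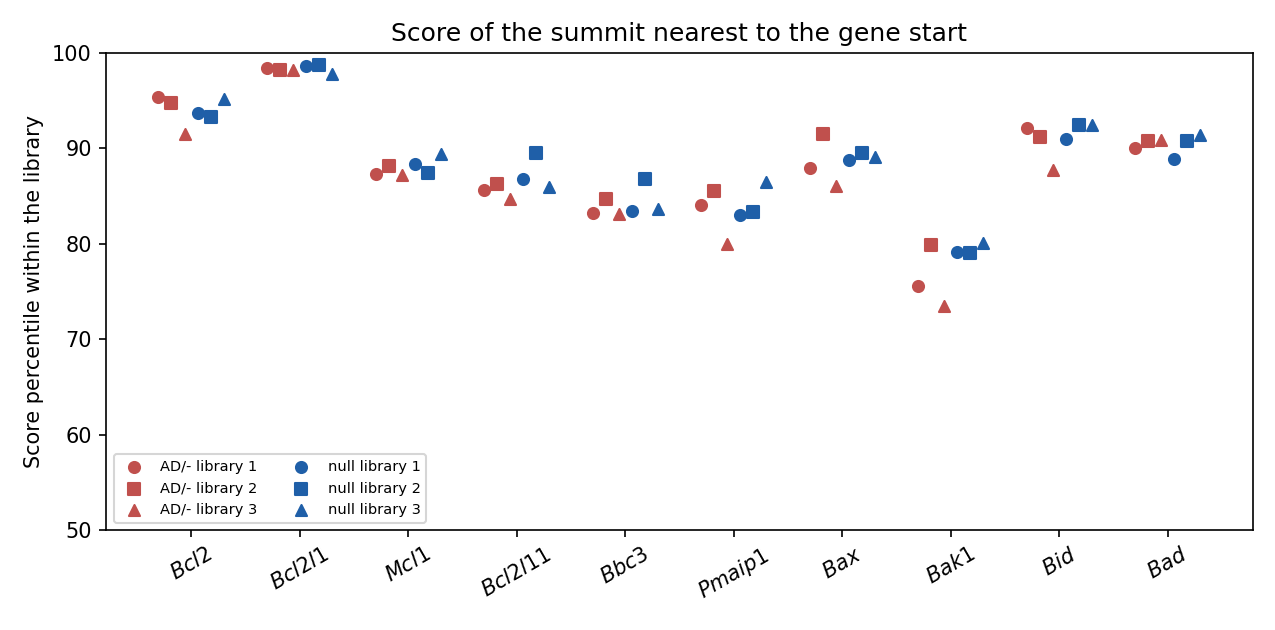
Score percentile within its own library (vertical axis) of the summit nearest to the annotated start of each gene (for several starts, the one with the closest summit), one symbol per library, AD/- in red and null in blue. Bcl2l1 was highest, at 97.8 to 98.8, Bak1 lowest, at 73.5 to 80.1, and no gene separated the genotypes at the start shown. For Bcl2l11 the second start is shown. At its first start every null percentile was above every AD/- percentile, though ranks among the shared regions overlapped.

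The survival gene Bcl2 (chr1:106538176-106714290, minus strand) had its start summit 96, 52 and 48 bp inside the gene in AD/- libraries 1, 2 and 3 and 95, 46 and 96 bp in null libraries 1, 2 and 3. The summit thus fell on either of a pair of places some 50 bp apart, each used in both genotypes. Its percentiles were 95.4, 94.7 and 91.5 in AD/- and 93.7, 93.3 and 95.2 in null, and these overlapped.

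Bcl2l1, which encodes the survival protein BCL-XL (chr2:152758732-152833803, minus strand), had the highest-scoring start summit of the 10 genes. It was base 152831389 in all 6 libraries, 339 bp downstream of one annotated start and 672 bp upstream of the next. Its percentiles were 98.4, 98.2 and 98.3 in AD/- and 98.7, 98.8 and 97.8 in null. A further annotated start at 152828489 had no summit closer than 2462 bp.

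Mcl1, a short-lived survival protein on which thymocytes depend (chr3:95656944-95663179, plus strand), had summits from 40 bp upstream to 33 bp downstream of its start. AD/- libraries 2 and 3 had them upstream, by 28 and 40 bp, and AD/- library 1 and the null libraries downstream, by 27 to 33 bp. Percentiles were 87.3, 88.2 and 87.2 in AD/- and 88.4, 87.4 and 89.4 in null, so the groups overlapped.

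Among the BH3-only genes, Bcl2l11 (chr2:128126038-128162547, plus strand) had a separate summit at each of its 2 annotated starts in every library. At the first start the summit was 78 to 112 bp upstream, at percentiles of 91.0, 91.8 and 92.4 in AD/- and 92.8, 94.7 and 92.7 in null. Every null library was thus above every AD/- library in its own list. Ranked among the 38374 regions that all 6 libraries share, so that the lists are equally long, the groups overlapped. At the second start the summit was 31 or 35 bp upstream, at percentiles of 84.7 to 89.5.

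Bbc3, a BH3-only protein induced by p53 (chr7:16308398-16318334, plus strand), has 3 annotated starts, all inside the annotated gene body. The summit was base 16310240, 21 bp upstream of the middle one, in AD/- libraries 2 and 3 and null libraries 1 and 3, and base 16310153, 108 bp upstream, in AD/- library 1 and null library 2. Percentiles were 83.3, 84.7 and 83.1 in AD/- and 83.5, 86.7 and 83.6 in null. The start of this p53 target was therefore accessible in both genotypes, and each summit position was used by libraries of both.

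Pmaip1, also a BH3-only target of p53 (chromosome 18, 66458604 to 66465558), had a summit 21 to 53 bp outside its lower end. The percentiles were 84.1, 85.6 and 79.9 in AD/- and 83.0, 83.4 and 86.5 in null. Its position again took values of either 21 bp (AD/- libraries 1 and 3, null library 3) or 49 to 53 bp (the other libraries).

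Bid, which caspase-8 cleaves into its active form (chr6:120893119-120917062, minus strand), had a summit 75 bp upstream of its start in AD/- library 2 and all 3 null libraries and 37 to 38 bp upstream in AD/- libraries 1 and 3. Percentiles were 92.1, 91.2 and 87.7 in AD/- and 91.0, 92.4 and 92.5 in null. Bad, a BH3-only protein that survival kinases switch off by phosphorylation (chr19:6941861-6951905, plus strand), had its summit 224 bp upstream in 4 libraries, 225 bp in null library 1 and 294 bp in null library 2. It lay 130 bp from the start of the neighbouring gene Gpr137, closer than to that of Bad, so the accessible site cannot be assigned to either. Percentiles of the Bad summit were 90.0, 90.8 and 90.9 in AD/- and 88.9, 90.7 and 91.4 in null.

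The effector Bax, a p53 target (chr7:45461695-45466903, minus strand), had its summit at base 45466860, 38 bp downstream of its annotated start, in all 6 libraries. Percentiles were 87.9, 91.5 and 86.0 in AD/- and 88.8, 89.5 and 89.1 in null. The null values lay within the AD/- range.

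The other effector, Bak1 (chr17:27019812-27028627, minus strand), differed between libraries in position. AD/- library 2 had its summit at base 27028605, 22 bp inside the gene and 654 bp from the start of Ggnbp1, and none at the site 1007 to 1008 bp inside. AD/- libraries 1 and 3 and all null libraries had the summit at base 27027619 or 27027620 and none near the start. Scores were alike, at a percentile of 79.9 in AD/- library 2 and of 75.6, 73.5, 79.1, 79.1 and 80.1 in AD/- libraries 1 and 3 and null libraries 1, 2 and 3. The difference lies within the AD/- genotype and cannot separate it from null.

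**Figure D2:**
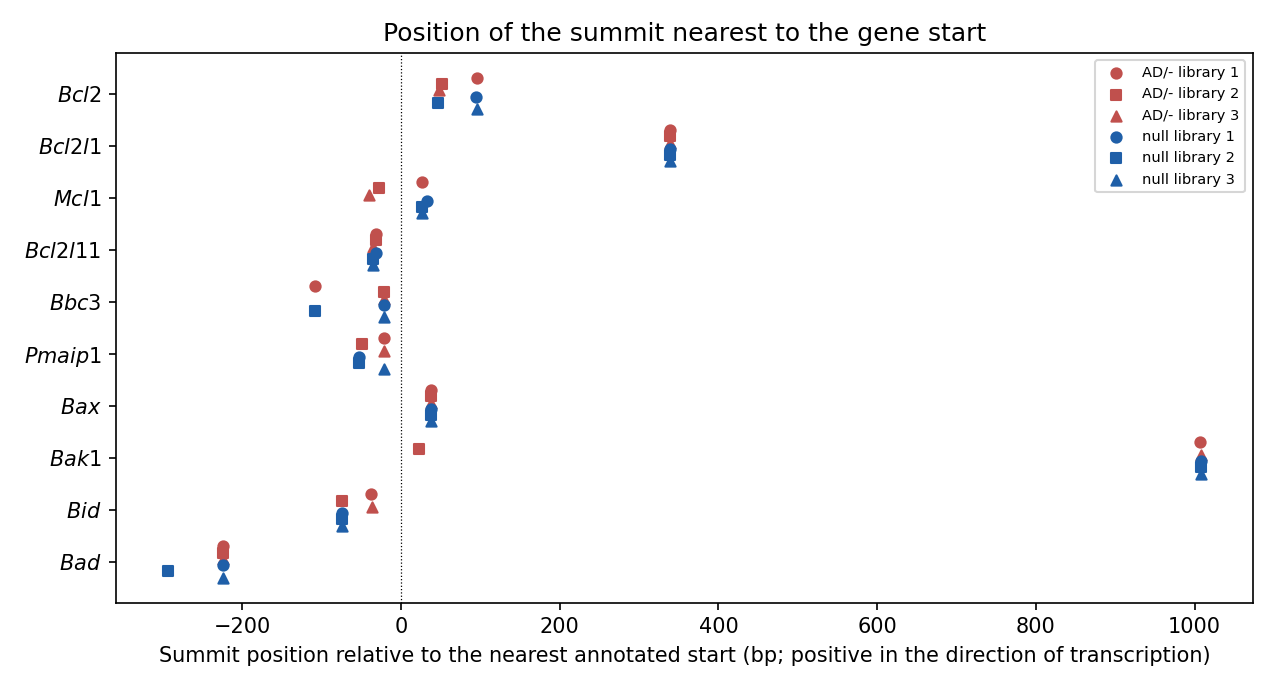
Position of the summit nearest to the gene start (horizontal axis, bp from the annotated start with the closest summit, positive in the direction of transcription; for Pmaip1, from its lower gene end, positive toward higher coordinates), one symbol per library, AD/- in red and null in blue. Bax and Bcl2l1 sat on one base in all 6 libraries, and for Bak1 AD/- library 2 was at 22 bp and the other libraries at 1007 or 1008 bp.

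The promoter windows are rich in G and C, with a median of 65.7% over the 15 windows of 9 members, compared with 53% over all 32619 RefSeq promoter windows. Motifs were searched on both strands as exact letters and are given as matches, not as bound sites. The GC box GGGCGG was found in 10 of the 15 windows (7 of 9 members) and in 35.9% of all windows. The ETS core CCGGAA, read by a factor family abundant in lymphocytes, was in 5 of the 15 windows (Bcl2l1, Mcl1, Bcl2l11, Bid and Bad) and in 15.0% of all.

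The E-box CACGTG was in windows of Bax and Bbc3 and in 7.20% of all windows. In Bax 1 of its matches, bases 286 to 291 counted from 1 at the 5′ end of the printed window, covers the summit at base 289. In Mcl1 the ETS core at bases 221 to 226, and in Bcl2l11 that at bases 147 to 152 of the first window, lie in the capitals. In Bid all 3 GC boxes do. The 10-base unit of the p53 response element matched 1 of the 15 windows, that of Bax at bases 50 to 59, and 8.36% of all windows. The CCAAT box (CCAAT) was in 4 windows and 37.6% of all, the CRE core TGACG in 3 and 20.9%, the RUNX core TGTGGT in 1, that of Bak1, and 16.6%. The TATA box TATAAA was in 0 of the 15 windows and in 13.7% of all. Windows of the middle and last Bbc3 starts share bases.

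Beyond the starts, the 10 genes differed in how much open DNA surrounds them. The 174 regions were spread as 30 for Bcl2, 26 for Bcl2l1, 20 each for Bcl2l11 and Bak1, 17 for Mcl1, 15 for Bad, 14 for Bax, 13 each for Bbc3 and Bid, and 6 for Pmaip1. Windows also differ in length, since the Bcl2 gene alone spans 176 kb. Per 100 kb, Bak1 had the most regions, 18.4, and Pmaip1 the fewest, 5.61. The median over the members was 13.5 per 100 kb, and over the same windows of all protein-coding genes 4.88 (quartiles 1.09 and 9.06).

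**Figure D3:**
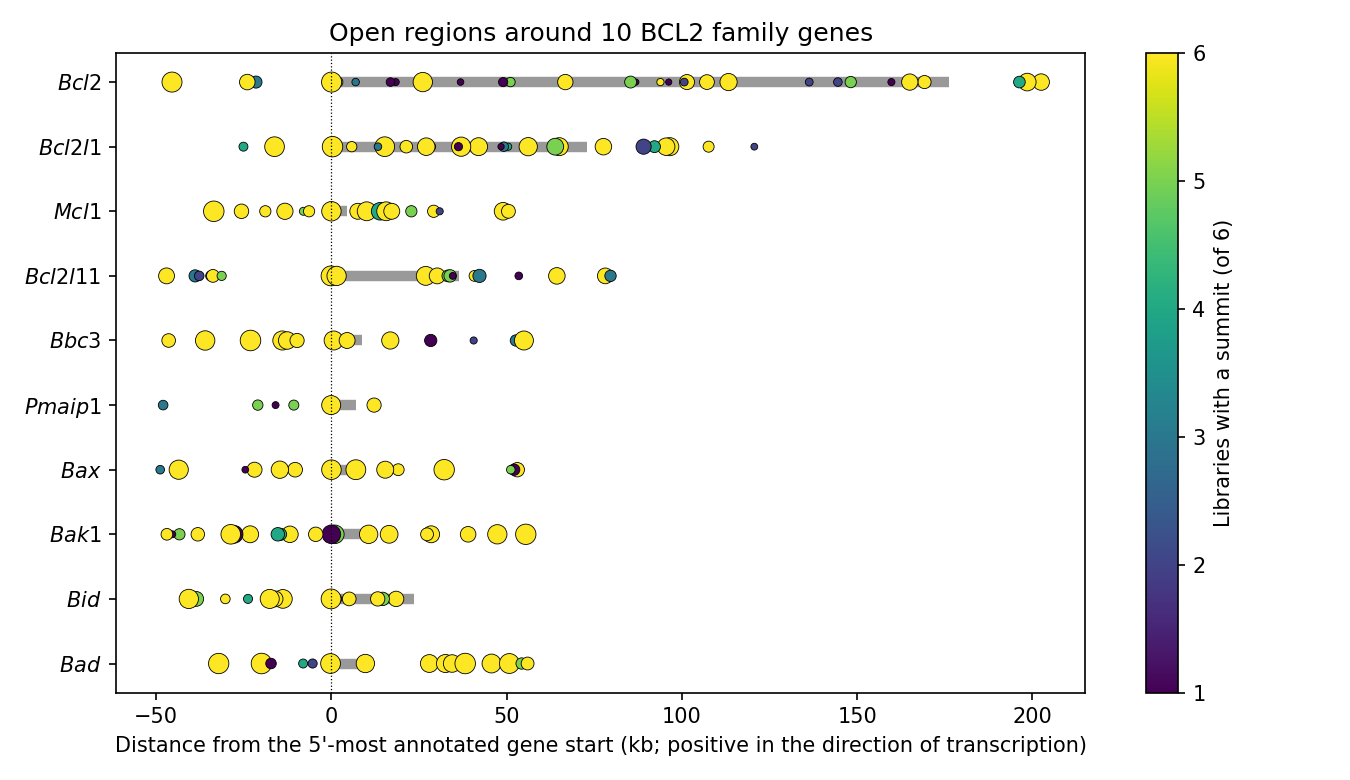
Regions around each gene by distance in kb from its 5′-most annotated start, positive in the direction of transcription (for Pmaip1, from its lower gene end, positive toward higher coordinates). Grey bars are gene bodies, colour gives the number of libraries with a summit (1 to 6) and symbol size the median score percentile. Bcl2 had 23 regions inside its body besides that at its start, and Pmaip1 had 6 regions in its whole window.

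Of the 174 regions, 104 had a summit in all 6 libraries, or 59.8% (95% Wilson interval 52.3 to 66.8, which covers counting error only). Over all 73702 regions the share was 52.1%. A summit in a single library was found in 20 regions (11.5%, compared with 16.4% overall). Regions at a start of any gene were in all 6 libraries in 33 of 38 cases, and those away from starts in 71 of 136. Over the whole genome these shares were 82.6% and 45.3%.

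Much of the strongest open DNA in the windows belonged to neighbouring genes. Of the 174 regions, 27 lay within 1 kb of the start of another protein-coding gene and not of the member. Around Bad, where 15 other genes share the window, 10 of 15 regions were at such starts. They include those of Esrra, which encodes an oestrogen-related nuclear receptor (percentiles of 98.5 to 99.8), of Fkbp2 (97.6 to 98.9), of Trmt112 (94.8 to 97.9) and of Dnajc4 (90.7 to 94.9). At Bax they include Gys1, the muscle glycogen synthase gene (97.3 to 98.3), Ftl1, the ferritin light chain gene (89.3 to 94.9), and Nucb1 (84.3 to 87.6). At Mcl1 the highest-scoring region was at the start of Ensa (97.8 to 99.4), at Bbc3 at that of Ccdc9 (96.3 to 99.4), with a further one at Inafm1 (84.6 to 90.0). At Bak1 they lay at Zbtb9 (94.4 to 97.4), Itpr3, an inositol trisphosphate receptor gene (86.1 to 92.0), and Ggnbp1 (71.1 to 80.7). At Bcl2 a region at the start of Kdsr had percentiles of 92.5 to 95.2, and at Bcl2l1 one at the start of Tpx2, a spindle protein gene, 89.1 to 92.4.

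Other strong regions lay far from any start. Inside Bcl2, 26.1 kb from the start, a region (chr1:106687879-106688579) was in all 6 libraries at percentiles of 84.6 to 90.8. Another inside Bcl2 at 113 kb had 59.6 to 74.5, and one 199 kb from the start, beyond the gene, 62.1 to 76.3. Inside Bcl2l1, regions 12000 bp and 33.8 kb from its nearest start had percentiles of 86.9 to 92.8 and 77.4 to 87.7, and a region at 52.9 kb 70.7 to 80.0. The last lies closer to the start of Cox4i2, at 10516 bp, as does that at 33.8 kb. Bcl2l11 had an internal region 25.4 kb from the second start, at 76.8 to 83.8.

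Upstream of Bid, regions 13.8, 17.6 and 40.7 kb from the start were in all 6 libraries, at 73.0 to 82.4, 78.0 to 86.4 and 82.4 to 88.7. The middle one fell on a single base in all 6. Downstream of Mcl1, regions 10.1 and 15.6 kb from the start had percentiles of 77.5 to 84.1 and 80.4 to 83.0, and the latter lies closer to the start of Adamtsl4. Bbc3 had a region 13970 bp upstream of its first start, 8817 bp from that of Ccdc9, at 82.8 to 86.0. Another, 54.1 kb downstream and closer to the start of Sae1, was on base 16364527 in all libraries, at 79.1 to 88.0. Bak1 had 1 at 47.4 kb, 8094 bp from the start of Zbtb9, at 81.5 to 88.7. Beside its start, Pmaip1 had just 1 further region in all 6 libraries, 5243 bp above the upper gene end, with percentiles from 24.1 to 54.1.

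The comparison the study names is that of AD/- with null thymus. No region of the 10 genes was AD-only, meaning a summit in each AD/- library and in none from null mice. This rule calls 0.179% of all regions. A single region met the reverse rule and was null-only. That rule calls 0.418% of all regions. With 174 regions a count of 0 or 1 is near the background of either rule. No single region can pass a test in this design, since the smallest exact two-sided p that 3 libraries a genotype allow is 0.10.

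The null-only region belongs to Bcl2l11 (chr2:128205421-128205934) and lies 78.1 kb downstream of its second start. Its summits were at 128205684, 128205683 and 128205671 in null libraries 1, 2 and 3, at percentiles of 17.8, 24.4 and 33.5. The nearest AD/- summits were 1482 to 1488 bp away. They belong to a region (chr2:128203945-128204451) that all 6 libraries share, at percentiles of 55.5, 53.6 and 47.4 in AD/- and 49.7, 58.7 and 59.9 in null. The null-only region kept its call with other extensions, with scores of at least 5 and with lists of equal length. The other extensions could not change it, since its summits lie within 13 bp and no AD/- summit is closer than 1482 bp. The score limit and the equal lists only remove summits. They could have taken away a null summit but could not add one in AD/-. Leaving a library out could not undo the call, since a region in every null and no AD/- library stays so. The null-only region lies outside a window with flanks of 10 kb.

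Near misses had a summit in 2 of 3 libraries of a genotype and 0 of the other, or in 3 and 1. Of the member regions, 1 was in 2 AD/- and 0 null libraries (0.575%, with 1.33% over all regions). The reverse held for 1 (0.575%, with 1.95%). With 3 AD/- libraries and 1 null there was 1 (0.575%, with 0.541%), and the reverse held for 2 (1.15%, with 1.85%). In Bcl2, a region 136 kb from the start was found in AD/- library 1 (percentile 7.33) and AD/- library 2 (6.33) alone. At Mcl1, a region 30.9 kb downstream was found in null library 2 (7.89) and null library 3 (0.27) alone. At Bad, a region 8043 bp upstream and 697 bp from the start of the potassium channel gene Kcnk4 was found in all 3 AD/- libraries (3.11, 15.3 and 11.2) and in null library 2 (12.6). Regions in all 3 null libraries and AD/- library 2 alone lay in Bcl2l1, 47.2 kb from the start (1.61 to 5.61), and 23.8 kb upstream of Bid (7.42 to 19.99). All 5 had low scores.

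Regions with more null than AD/- libraries numbered 33 and those with the reverse 21. Over all regions the shares were 24.1% and 14.9%, and among the members 18.97% and 12.1%. AD/- library 3, the shortest list, moved with this. Of the 18 regions found in 5 libraries, 11 lacked that library, compared with 73.2% over all such regions. With AD/- library 3 left out and the share of libraries compared, 26 regions (14.9%) leaned to null and 31 (17.8%) to AD/-. Over all regions the lean turned likewise, to 17.9% and 20.8%. The part of list length in the lean was not tested.

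The number of summits in a window did not separate the genotypes for any gene. In the Bcl2 window there were 21, 25 and 17 summits in AD/- against 18, 20 and 22 in null (means 21 ± 4 and 20 ± 2, SD, with 3 libraries each and an exact permutation p of 0.9). In the Bcl2l11 window there were 14, 15 and 11 in AD/- against 13, 16 and 17 in null (13.3 ± 2.08 and 15.3 ± 2.08, exact permutation p of 0.4). AD/- library 3 was lowest in both. The Pmaip1 window had 5, 4 and 2 against 5, 4 and 6 in null (exact permutation p of 0.5). The Bad window leaned the other way, with 13, 15 and 13 against 12, 13 and 12 (13.7 ± 1.15 and 12.3 ± 0.577, exact permutation p of 0.3).

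Over the 10 windows the two-sided p ran from 0.3 to 1, the smallest possible being 0.10. Adjusted over the windows of all 21631 genes by the Benjamini-Hochberg method, every p was 1. The groups overlapped in all 10 windows. Over all gene windows every AD/- count was below every null count in 1.22%, and above in 0.337%. Summed over the windows, AD/- libraries had 137, 152 and 118 summits and null libraries 133, 144 and 147, a difference of means of −5.67 that became 3.17 without AD/- library 3. Per 10000 summits of the library the values were 25.1, 25.3 and 26.5 in AD/- and 24.6, 25.9 and 25.3 in null, and AD/- library 3 was then the highest.

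**Figure D4:**
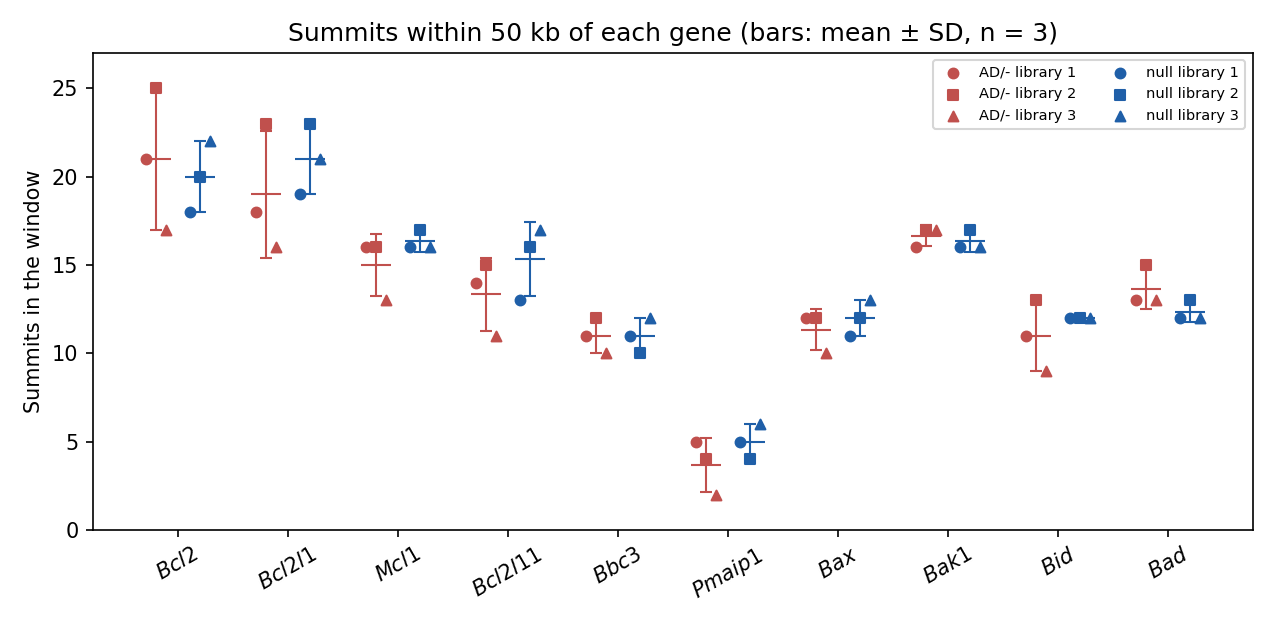
Number of summits in the window of each gene (gene body with 50 kb on each side), one symbol per library, with mean and SD of 3 libraries per genotype. AD/- library 3 was the lowest of all, alone or tied, except at Bak1 and Bad, and the genotypes overlapped in all 10.

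The 104 regions found in all 6 libraries allow a comparison of score ranks over lists of equal length. Each was ranked among the 38374 such regions of the genome. The median difference of the genotype means, AD/- minus null, was −0.0087 percentile points over the member regions and −0.016 over all, and single member regions ranged from −9.97 to 13.4. Every AD/- library ranked above every null library in 3 of the 104 regions (2.88%, with 5.05% over all regions) and below in 2 (1.92%, with 4.65% over all). Both shares are under the background.

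The 3 regions with higher ranks in AD/- were at Bcl2, Bbc3 and Bak1. That of Bcl2 lies 101 kb inside the gene (chr1:106612522-106613141), with rank percentiles of 48.1, 36.0 and 33.7 in AD/- and 27.1, 20.4 and 30.1 in null. That of Bbc3 lies 9774 bp upstream of its first start (chr7:16299558-16300102), with 30.7, 23.4 and 30.9 against 15.0, 17.0 and 22.7. The groups did not overlap, but at Bbc3 the gap between 23.4 and 22.7 was narrow.

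At Bak1 the region was 4450 bp upstream and 3818 bp from the start of Ggnbp1, with means of 29.2 ± 2.1 and 21.9 ± 4.25 (SD, n = 3 each). The 2 regions with lower ranks in AD/- were inside Bcl2l1, 23.8 kb from the nearest start (50.5 ± 2.81 against 59.1 ± 0.517), and in the Bad window, 1722 bp from the start of Trpt1 (8.02 ± 1.43 against 18.0 ± 3.07, n = 3 each). No test was made, since scores depend on depth, which is unknown.

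**Figure D5:**
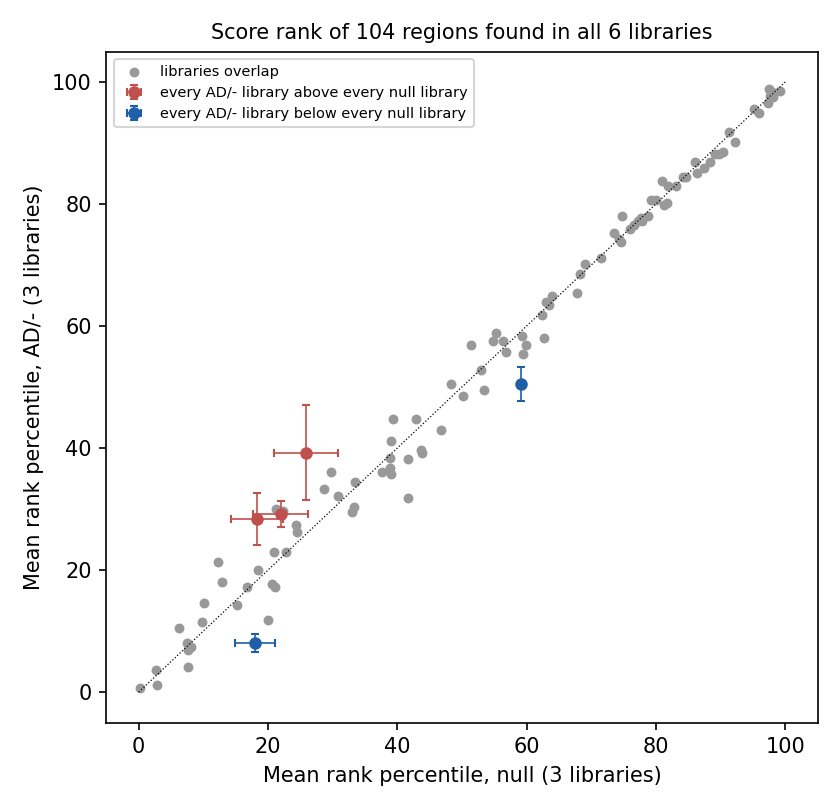
Mean rank percentile of each of the 104 regions found in all 6 libraries, null on the horizontal and AD/- on the vertical axis, with ranks taken among the 38374 such regions of the genome. Coloured points with bars (SD, n = 3) are the 3 regions in which all AD/- libraries ranked above all null libraries (red) and the 2 in which they ranked below (blue); the dotted line marks equal ranks.

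Summit positions were close to each other in all libraries. In the 104 regions the lowest and highest position differed by a median of 43.5 bp, compared with 49 bp over all shared regions, and by a median of 36 bp in the 10 regions at a member's start. All 6 libraries had the same base in 7 of the 104 (6.73%, with 1.73% over all regions). These include the starts of Bax and Bcl2l1 and the upstream Bid region. Positions of the genotypes did not overlap in 4 regions (3.85%, with 6.10% over all).

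Of those 4, Bcl2 held 2 neighbours. At chr1:106606821-106607429 the summits were at 106607087, 106607071 and 106607087 in AD/- and at 106607177, 106607172 and 106607179 in null, 94.3 bp apart on average. At chr1:106612522-106613141, where AD/- also ranked higher, they were at 106612833, 106612772 and 106612773 against 106612891, 106612834 and 106612891. There the nearest AD/- and null summits were adjacent bases. The others were in the Bcl2l1 window, 104 kb from the nearest start of Bcl2l1 and 12157 bp from that of Id1 (70 bp apart), and 13.2 kb upstream of Mcl1 (26 bp apart).

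Agreement between libraries in the windows did not follow genotype. The Jaccard index (regions that both libraries hold, divided by those that either holds) averaged 0.794 over the 6 pairs of the same genotype and 0.806 over the 9 pairs of different genotypes. The lowest was 0.720, for AD/- libraries 2 and 3, and the highest 0.855, for AD/- library 2 with null library 2.

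Other genes of the pathway were examined in the same way. Of 14 further BCL2 family genes, 9 had a summit within 1 kb of the start in all 6 libraries, among them Bcl2l2 (BCL-W, a survival protein) and Bmf (a BH3-only protein). Bok lacked it in AD/- library 3 and Hrk, a BH3-only gene, in null library 2. Bcl2l10, judged by its gene ends, and Bcl2a1a and Bcl2a1b had none in any library. A further copy, Bcl2a1d, had one in all 6. The Bcl2a1 genes are near-identical copies, so reads from them may not be placed uniquely, and their values are uncertain.

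Of 22 genes of the apoptosome, the caspases, their inhibitors and the death receptors, all had a start summit in all 6 libraries, including Apaf1, Cycs, Casp9, Xiap and Fas. The windows of these lists held 124 and 223 regions, of which 54.8% and 59.2% were in all 6 libraries. None was an AD-only or a null-only region, beside backgrounds of 0.179% and 0.418%. The window of Bcl2l13 overlaps that of Bid.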

How the data were processed

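Each library has its own deposited list of summits, so the authors called peaks per sample. A line gives a 1 bp summit and a score. The score was taken as −log10 of the q-value, since the lowest deposited score per list is 1.30 to 1.39, just past the −log10 of 0.05. The submitters' processing notes list the build GRCm38 and the tools MACS2 2.1.2, Bowtie2 2.3.4.2, Trim Galore 0.4.5 and Picard 2.9.0, without their roles. Settings, read shifting and duplicate handling are not given in the sources used here.

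Genes came from a RefSeq table on GRCm38 and starts from RefSeq promoter windows, which give a strand for 9 of the 10 members and for 17274 of 21631 genes; otherwise either gene end was used, so some ends stood in for starts. Regions, ranks, exact permutation tests over 20 relabellings and Benjamini-Hochberg adjustment were computed with Python 3.11.15, pandas 2.3.3, NumPy 2.4.6 and statsmodels 0.14.6, and tested on simulated data. The members and gene lists were chosen with earlier results of these data known. Named were all 10 members, with the region at the start, up to 4 further strong shared regions and every one-genotype region each, neighbours nearer to such regions, and list genes with a one-genotype region; other list genes are named as examples. Replicates are numbered in the order of deposition and pair nothing across genotypes. Alternatives were other extensions, flanks of 10 kb, equally long lists, summits scoring 5 or more, summits within 501 bp counted once, other start distances and each library left out. Distal sequences were not used here. Some list genes are not reported here by name.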

Additional observations from a re-analysis of the deposited data

How the results depend on the processing

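Of 110 recomputed values, 89 stayed within 1.5 times the reported count or within 1 SD of the reported value. Some of these could not move, since summit counts and start summits do not depend on the extension. For the difference in summits between genotypes the SD was 13.1, so values from −13.8 to 3.17 all counted as within it. With flanks of 10 kb the windows held 79 regions, 45 of them in all 6 libraries, 0 null-only regions and 1 region with lower AD/- ranks, because fewer regions were examined. With lists of equal length there were 2 AD-only regions, 1758 bp inside Bcl2 and 2581 bp inside Bcl2l1, beside 0.30% over all regions. This setting cut low-scoring summits from every list but that of AD/- library 3, the shortest. In the full lists the Bcl2 region lacked a summit in null library 2 alone. The Bcl2l1 region had one in all 6 libraries, at percentiles of 21.0, 26.3 and 3.98 in AD/- and 15.8, 9.19 and 22.6 in null. With extensions of 500 bp the mean distance of a summit from the average position in its shared region was 28.5 bp, compared with 20.2 ± 3.11 bp (SD over 6 libraries) with 250 bp. With 1 library left out, AD-only regions numbered 0 to 1 and null-only regions 1 to 3. The single AD-only region was in Bcl2 without AD/- library 3 (1.08% over all regions) and at Bad without null library 2 (0.369%). Null-only regions numbered 3 without AD/- library 2 (1.84% over all regions) and 2 without null library 1 (1.26%). That of Bcl2l11 was among them each time, which the rule fixes in advance for a region that meets it with all 6 libraries. Regions with higher AD/- ranks numbered 4 to 11 (3.85% to 9.57% of shared member regions, beside 8.75% to 12.2% over all) and those with lower ranks 4 to 17 (3.77% to 16.3%, beside 8.25% to 11.6%), since 2 libraries separate from 3 more readily. The 11 were found without AD/- library 3 (11.3% over all) and the 17 without null library 3 (11.6% over all). The rank and position alternatives were chosen after seeing the data. No paired analysis was possible because the labels give no replicate numbers. Unknown depth limits all statements on absent summits.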

Other observations

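Some regions that not every library had were not weak. Of the 70 such regions in the windows, 7 had a median percentile of at least 40, a limit chosen after the values were seen. In 5 of the 7, every library without a summit in the region had one within 2 kb. At Mcl1, 13.9 kb downstream of the start, a region had percentiles of 70.4 and 71.1 in AD/- libraries 1 and 2 and 59.8 and 70.0 in null libraries 1 and 2. AD/- library 3 and null library 3 had none there, and their nearest summits were 1705 and 1755 bp away. Inside Bcl2l1, a region 60.6 kb from the nearest start of that gene and 2814 bp from that of Cox4i2 was in every library but null library 1, at 52.1 to 64.8, and that library had a summit 1146 bp away. In the Bcl2l1 window another region was found in AD/- library 2 and null library 2 alone, at 49.6 and 50.3. Near Itpr3, in the Bak1 window, AD/- library 3 alone had a summit at a percentile of 71.5, with summits of every other library 919 to 959 bp away.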
